A study of Homo sapiens with 13 samples.

Results

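HepG2S1 cells, a HepG2 liver cancer line that had been made resistant by slowly rising doses of sorafenib, were kept under the drug and moved to low oxygen, and their RNA was compared with that of the same line left at ordinary incubator oxygen. The comparison sets HepG2S1 with 6 µM sorafenib at 2% O2 for 72 h (3 flasks, numbered 16, 17 and 18) against HepG2S1 with 6 µM sorafenib at 20% O2 for 72 h (4 flasks, numbered 6, 7, 9 and 10). Both groups carried the drug, and its solvent was DMSO. It drew on 7 of the 13 arrays of the series and on 18377 genes, all those reached by a row of the table with 1 gene symbol (19310 of 28926 rows). The other arrays were 3 of HepG2S1 withdrawn from sorafenib at 20% O2 (flasks 13, 14 and 15) and 3 of untreated HepG2 at 20% O2 (flasks 1, 2 and 3), each for 72 h. HepG2S1 is a single resistant line, so the response of other resistant lines is not measured here. The labels number the flasks but do not tell whether each was an independent culture, and p-values here describe flask-to-flask variation, which may be technical.

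Cells read oxygen through prolyl hydroxylases (the EGLN family) that mark the alpha subunits of the hypoxia-inducible factors, HIF1A and EPAS1, for binding by VHL and destruction. When oxygen falls, the subunits escape, pair with ARNT and switch on genes that carry a short core motif, among them glucose transporters, glycolytic enzymes, angiogenic signals and the hydroxylases themselves. In liver tumours low oxygen is common in the poorly perfused core, and sorafenib, an inhibitor of RAF and growth factor receptor kinases, is itself known to reduce the tumour's blood supply.

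Values are the deposited log2 levels, so a difference of 1 is a doubling, and levels of different genes are not set against each other because probes differ in brightness. The medians of the 7 arrays lay between 7.30 and 7.38, and pairs of arrays correlated at 0.995 to 0.998 within a group and at 0.991 to 0.996 between the groups, across all rows. A level of 5.76, the median lower quartile of the arrays, served as a floor under which array values flatten. RNA of hepatocyte markers was low in the line. ALB, AFP, APOH, FGA, FGB and FGG, 6 of 12 hepatocyte markers, lay below the floor in both groups, against none of the 12 in HepG2. The rest lay above it, with means of at most 7.67 at 2% O2 and 7.76 at 20% O2. In HepG2 no mean of the 12 was lower than 11.46. At 2% O2 1 of the 12 was called lower, and so was 1 of 6 epithelial markers, against 6.17% of all genes. The mesenchymal markers VIM and CDH2 had mean levels of 12.66 and 12.08 at 2% O2 and 12.61 and 12.14 at 20% O2, and CDH1, the epithelial cadherin, 5.83 and 5.93. None of 6 epithelial markers lay below the floor, and KRT8, a simple epithelial keratin, had means of 12.41 and 12.46. Of 5 measured blood markers, PTPRC of leukocytes lay below the floor in both groups and CD3E of T cells at 2% O2, while CD68, a lysosomal protein of macrophages, had means of 12.23 and 12.08. Of 6 endothelial markers 3 lay below the floor in each group and 1, TEK, was called higher at 2% O2. TEK lay below the floor at 20% O2, and lost the call without flask 17 or with the 75th percentile of the arrays set equal. RNA was read from whole flasks, so that a change in every cell and a change in some of the cells cannot be told apart.

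The response leaned towards rises, and large changes were almost all rises. In limma, 1653 genes rose at 2% O2 (8.99% of the genes tested) and 1133 fell (6.17%), 2786 in all (15.2%), at an adjusted p under 0.05. Of these, 79 rose by 2-fold or more (0.43% of the genes tested) and 7 by 4-fold or more, while CD22 was the 1 gene that fell by 2-fold. Changes of 0.5 or more on the log2 scale numbered 376 rises and 36 falls. The median difference over all genes was -0.03. The arrays of the groups did not overlap for 2654 of the 2786 genes, nor for any of the 79. Both sets were chosen by the difference between these same arrays, so this describes them and adds no separate support. The share without overlap among all genes tested is not given here, so these counts have no background beside them. Each of the 79 also passed the adjusted p threshold in every alternative in which it was tested. Those alternatives reuse the same arrays, so this too adds no separate support. The 2-fold rises numbered 69 without flask 17 and 70 with the 75th percentile of the arrays set equal. The count of all genes called moved more. Without flask 17 limma called 1598 genes, 1077 higher and 521 lower. Leaving out flask 16 gave 1722, with 582 lower, and leaving out flask 10 gave 698 lower. Setting the 75th percentile of the arrays equal moved the median of all genes by -0.06 and turned the split to 1189 higher and 2529 lower, so that 32.0% of called genes were higher in place of 59.3%.

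**Figure D1:**
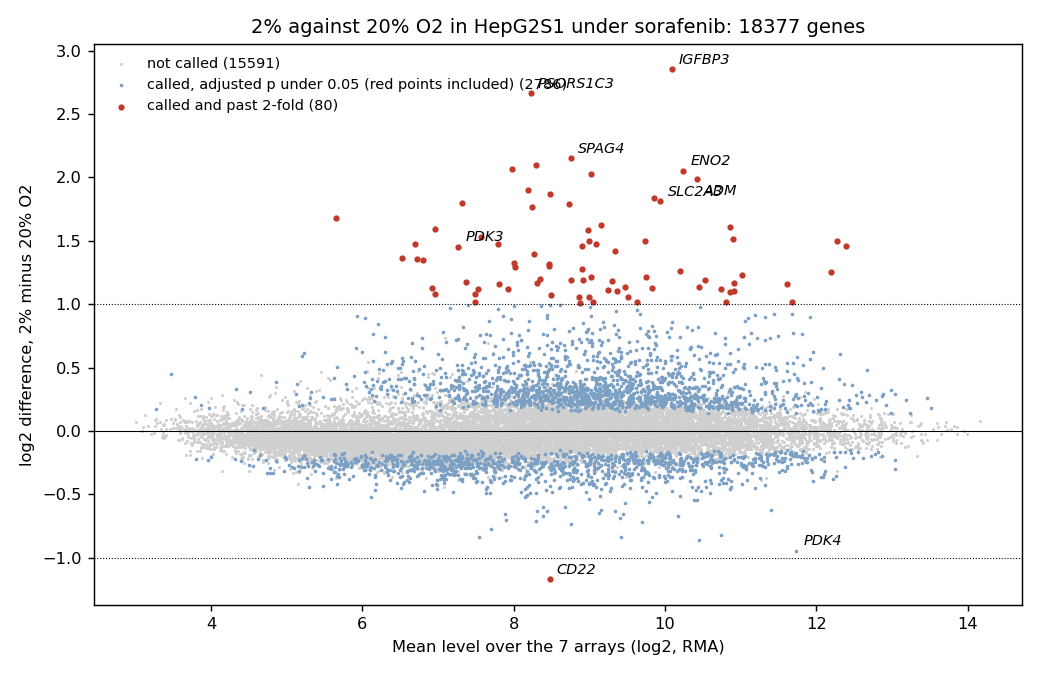
The log2 difference between 2% and 20% O2 of each of 18377 genes (vertical axis) is plotted against its mean log2 level over the 7 arrays (horizontal axis). Grey points are genes not called, blue points genes called at an adjusted p under 0.05, red points the 79 rises and 1 fall past 2-fold, and dotted lines mark 2-fold. The red points lie nearly all above 0 and over a wide range of levels, with IGFBP3 highest at 2.85 and CD22 lowest at -1.17.

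The largest rises brought together a growth factor binding protein, known oxygen-regulated enzymes and several genes whose roles are less well charted. IGFBP3, a secreted protein that binds insulin-like growth factors, read 11.60, 12.02 and 11.52 in flasks 16, 17 and 18 at 2% O2 and 8.93, 8.86, 8.87 and 8.80 in flasks 6, 7, 9 and 10 at 20% O2. Its lowest array at 2% O2 stood far above its highest at 20% O2, and it rose 7.21-fold, by 2.85 ± 0.11 (SE) on the log2 scale (limma adjusted p = 5.88e-10). Among the 7 arrays, flask 17 had the highest value. PSORS1C3, an RNA gene of the psoriasis susceptibility region, read 9.72, 10.00 and 9.52 against 7.26, 7.06, 6.95 and 7.06, with no overlap, and rose by 2.67 ± 0.12 (SE). SPAG4, a sperm-associated antigen of the nuclear envelope, read 10.02, 10.01 and 9.93 against 7.96, 7.86, 7.78 and 7.74, and rose by 2.15 ± 0.09 (SE). ROPN1L, a ropporin-like protein of the sperm flagellum, was even across arrays within each group, with 9.62, 9.43 and 9.44 against 7.32, 7.50, 7.28 and 7.49, and rose by 2.10 ± 0.08 (SE). The other genes of the 15 largest rises were PFKFB4, ENO2, ANGPTL4, ADM, EGLN3, CCL28 (a mucosal chemokine, 1.87), TMEM45A (a membrane protein, 1.83), SLC2A3, MAB21L3 (1.80), NRG4 (an ERBB4 ligand, 1.79) and PPP1R3C. Their differences ran from 1.76 to 2.06. The 15 were taken only from genes whose arrays did not overlap between the groups, so their lack of overlap is no result.

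**Figure D2:**
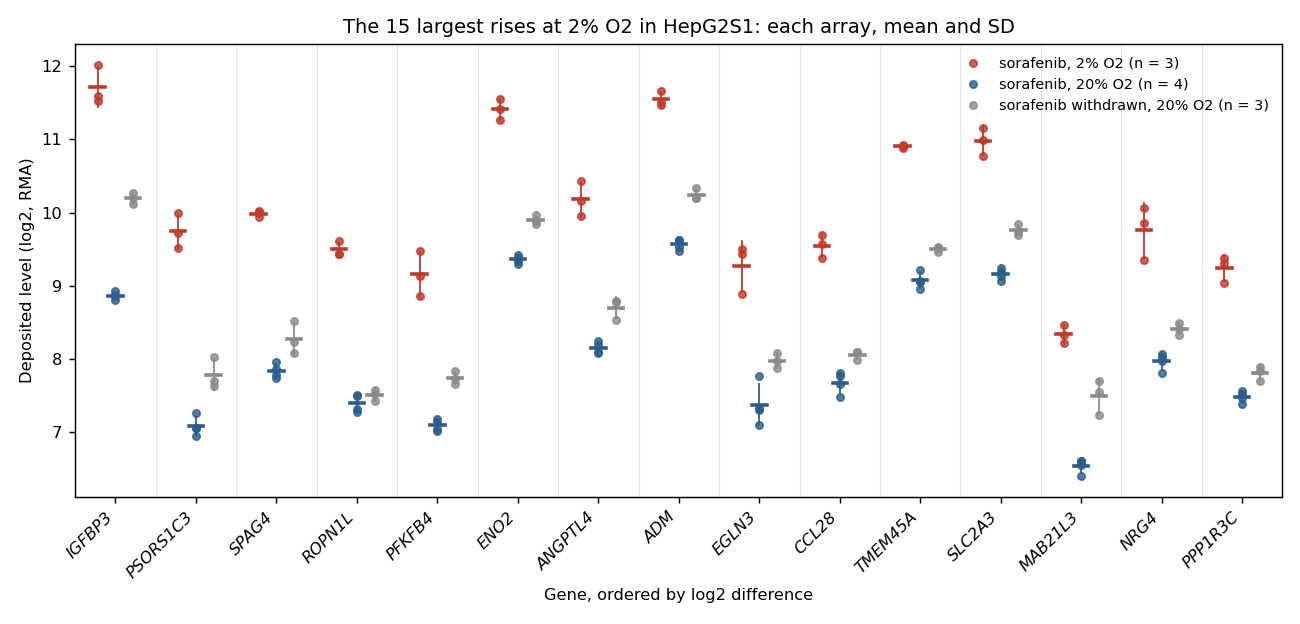
Deposited log2 levels of the 15 genes with the largest rises are plotted for every array of HepG2S1 with sorafenib at 2% O2 (red), with sorafenib at 20% O2 (blue) and withdrawn at 20% O2 (grey). Horizontal marks are group means and vertical bars 1 SD. In each gene the 3 red points lie above all blue points, as the choice of genes required, and above all grey points. The grey points lie at or above the blue ones in most genes.

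Over the 79 genes, the median difference of each array from the mean at 20% O2 was 1.28 in flask 16, 1.48 in flask 17 and 1.11 in flask 18. The 4 flasks at 20% O2 lay between -0.02 and 0.06 on this scale. These medians describe the genes chosen by this comparison and carry no test.

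The promoters of several of these genes hold the core motif bound by hypoxia-inducible factors, ACGTG, read on either strand as ACGTG or CACGT. In the 250 bases before the gene start, taken from RefSeq (GRCh38.p14, the first window listed for a gene), ACGTG occurred in 29 of the 64 genes with a 2-fold rise for which a window was used (45.3%). The share was 21.1% of 14210 windows over all genes, 25.7% over the genes that rose, 17.7% over those that fell and 20.8% over those not called. The core variant GCGTG (or CACGC) was found in 37.5% of the 64 and in 39.7% of all windows. The median number of CG pairs per window was 21 for the 64 genes and 18 for all genes, and its part in the shares was not tested. A match is a string of letters and not a measured binding site. The windows below belong to the 5 genes of the gene lists with the largest rises among those whose window held ACGTG, and show how the motif lies in each. Capitals mark each match on either strand, and sequences run 5′ to 3′ on the gene's strand.
ENO2 (chr12:6914330-6914579, plus strand): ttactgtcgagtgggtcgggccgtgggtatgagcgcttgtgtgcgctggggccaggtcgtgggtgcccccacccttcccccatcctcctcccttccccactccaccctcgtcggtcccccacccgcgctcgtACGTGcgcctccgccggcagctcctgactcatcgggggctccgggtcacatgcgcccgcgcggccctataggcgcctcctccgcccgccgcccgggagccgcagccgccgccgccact
ANGPTL4 (chr19:8363905-8364154, plus strand): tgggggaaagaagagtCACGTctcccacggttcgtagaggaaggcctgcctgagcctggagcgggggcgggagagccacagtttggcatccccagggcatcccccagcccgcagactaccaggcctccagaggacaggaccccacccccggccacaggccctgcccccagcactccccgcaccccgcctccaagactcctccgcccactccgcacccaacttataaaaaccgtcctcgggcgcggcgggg
PPP1R3C (chr10:91633072-91633321, minus strand): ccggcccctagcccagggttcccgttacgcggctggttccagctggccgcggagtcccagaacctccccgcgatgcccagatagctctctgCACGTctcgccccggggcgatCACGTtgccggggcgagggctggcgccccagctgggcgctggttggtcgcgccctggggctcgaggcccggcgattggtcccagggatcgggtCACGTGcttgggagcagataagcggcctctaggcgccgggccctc
LOX (chr5:122078260-122078509, minus strand): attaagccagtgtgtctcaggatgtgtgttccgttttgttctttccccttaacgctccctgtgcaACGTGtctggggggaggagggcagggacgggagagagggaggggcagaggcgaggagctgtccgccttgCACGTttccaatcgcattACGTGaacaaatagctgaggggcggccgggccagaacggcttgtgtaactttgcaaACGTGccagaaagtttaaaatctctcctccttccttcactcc
PDK3 (chrX:24465036-24465285, plus strand): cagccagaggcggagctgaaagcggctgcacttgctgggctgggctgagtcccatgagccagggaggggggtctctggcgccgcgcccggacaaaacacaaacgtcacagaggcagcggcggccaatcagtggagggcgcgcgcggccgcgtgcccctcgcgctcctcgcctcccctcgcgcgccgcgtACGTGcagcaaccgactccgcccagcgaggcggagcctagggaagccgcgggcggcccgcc
ENO2, ANGPTL4 and PDK3 hold 1 match each, beginning 118, 234 and 61 bases before the start. LOX holds 4, beginning 185, 116, 98 and 42 bases before it. PPP1R3C also counts 4, but those at 45 and 44 bases overlap, since CACGTG reads the same on both strands.

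Within the sensing system itself, the hydroxylases and a brake rose while the factors did not. Among all genes 8.99% rose and 6.17% fell, and the counts of each list below are to be read beside these shares. The lists were chosen with earlier results of these data known, so a share above these is a description and no separate support. Of the measured genes 55, VEGFA and VLDLR among them, stood in more than 1 list and are counted in each. Of 18 measured genes of HIF subunits and oxygen sensors, 6 rose (33.3%) and 3 fell (16.7%). The list's median difference was 0.05, and -0.01 with the 75th percentile set equal. EGLN3, a prolyl hydroxylase and known HIF target, read 9.43, 9.50 and 8.88 at 2% O2 and 7.09, 7.76, 7.34 and 7.31 at 20% O2. Flask 18 was the lowest of the first 3 and flask 7 the highest of the other 4, with a wide gap between them, and EGLN3 rose by 1.90 ± 0.15 (SE) (limma adjusted p = 6.84e-07). EGLN1, the main prolyl hydroxylase of most cells, rose by 0.59 ± 0.06 (SE), and CITED2, which competes with HIF for the coactivator p300, by 0.61 ± 0.06 (SE). HIF1A read 12.66, 12.67 and 12.51 against 12.80, 12.53, 12.75 and 12.76, the groups overlapped, and it did not pass (adjusted p = 0.381 in limma). Flask 7 held its lowest value at 20% O2. ARNT, the shared partner subunit, differed by 0.02 (adjusted p = 0.819 in limma). EPAS1, the subunit HIF-2 alpha, read 11.82, 11.90 and 11.84 against 12.22, 12.23, 12.20 and 12.21, and fell by 0.36 on the log2 scale with no overlap (limma adjusted p = 0.000122). HIF1AN, the asparagine hydroxylase, rose by 0.28, VHL fell by 0.23 and HIF3A fell by 0.22. These 3 small changes each lost the call when single arrays were left out, with limma adjusted p of up to 0.0941, 0.105 and 0.158. Without flask 6, 7 or 17, 1 member of the list fell in place of 3.

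Genes of glucose uptake and glycolysis rose nearly along the whole pathway. Of 21 measured members, 16 rose and 1 fell, with a median difference of 0.41, against 8.99% and 6.17% of all genes. SLC2A1, the common glucose transporter GLUT1, read 11.70, 11.87 and 11.72 at 2% O2 and 10.24, 10.35, 10.22 and 10.21 at 20% O2. All 3 arrays at low oxygen were higher than all 4 others, and SLC2A1 rose 2.85-fold, by 1.51 ± 0.06 (SE) (limma adjusted p = 5.88e-10). SLC2A3, the high-affinity transporter GLUT3, read 10.99, 11.16 and 10.78 against 9.14, 9.25, 9.06 and 9.19, without overlap, and rose by 1.81 ± 0.08 (SE). Its near copy SLC2A14 rose by 1.12, and reads of these 2 genes may share probes, so that their separate values are uncertain. Next in the pathway, in an order that includes genes outside the naming rule, HK2, the inducible hexokinase, rose by 1.19 and HK1, the constitutive one, differed by 0.15 and did not pass. GPI, the isomerase, rose by 0.27. Among the phosphofructokinases, PFKL rose by 0.66 and PFKP by 0.54 while PFKM, the muscle type, fell by 0.41.

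PFKFB4, which sets the level of fructose 2,6-bisphosphate and so the pace of phosphofructokinase, read 9.13, 9.47 and 8.86 against 7.18, 7.13, 7.01 and 7.04. Flask 17 was the highest and flask 18 the lowest of the arrays at 2% O2, the groups did not overlap, and PFKFB4 rose 4.18-fold, by 2.06 ± 0.11 (SE). PFKFB3, its better known sister, rose by 0.41, while PFKFB1 and PFKFB2 did not pass. In lower glycolysis the aldolases differed, with ALDOC up by 0.98 and ALDOA by 0.18. TPI1, the triose isomerase, rose by 0.51, PGK1, the first enzyme to yield ATP, by 0.32, PKM, pyruvate kinase, by 0.31 and ENO1, the general enolase, by 0.18. GAPDH differed by 0.08 and did not pass. ENO2, the enolase first known from neurons, read 11.42, 11.55 and 11.26 against 9.39, 9.43, 9.34 and 9.29. Its groups were about 2 log2 units apart with no overlap, and it rose 4.15-fold, by 2.05 ± 0.07 (SE) (limma adjusted p = 3.07e-10). The differences of HK2, ALDOC and ENO2 were larger than those of their isoenzymes HK1, ALDOA and ENO1, though this was not tested. Leaving out each array in turn left 15 or 16 members higher.

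At the fork after pyruvate, the pyruvate dehydrogenase kinases, which switch off pyruvate dehydrogenase, moved in opposite directions. Of 13 measured genes of pyruvate and lactate handling, 3 rose and 4 fell. PDK3 read 8.07, 8.30 and 7.92 at 2% O2 and 6.62, 6.63, 6.63 and 6.70 at 20% O2, and PDK1 read 11.54, 11.54 and 11.40 against 10.50, 10.33, 10.37 and 10.37. Both were higher in every array at 2% O2, and they rose by 1.45 ± 0.08 and 1.10 ± 0.06 (SE). PDK4, the isoform tied to fasting and fatty acid use, read 11.25, 11.02 and 11.31 against 12.14, 12.11, 12.15 and 12.15. It was lower in every array at 2% O2, lowest in flask 17, and fell by 0.95 on the log2 scale (SE 0.08, limma adjusted p = 8.15e-07). PDK2 fell by 0.34. LDHA, which turns pyruvate into lactate, rose by 0.26 ± 0.05 (SE), and its arrays read 13.67, 13.61 and 13.57 against 13.37, 13.27, 13.41 and 13.37. Its values lie near the top of the array's range. Without flask 17, 2 members fell in place of 4. CA12, a cell-surface carbonic anhydrase of pH control, rose by 0.54 ± 0.10 (SE), with flask 17 highest at 8.11 against 7.61 and 7.69 in flasks 16 and 18.

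Glycogen enzymes on both the making and the breaking side rose. Of 13 measured members, 7 rose and 1 fell, with a median of 0.25. The fall was lost without flask 10, 16 or 17. PPP1R3C, which targets a phosphatase to glycogen and favours its synthesis, read 9.38, 9.31 and 9.04 against 7.56, 7.46, 7.52 and 7.38, did not overlap and rose by 1.76 ± 0.09 (SE). GBE1, the branching enzyme, rose by 1.14 ± 0.07 (SE), and GYS1, glycogen synthase, by 0.86 ± 0.05 (SE). PYGL, the liver phosphorylase that breaks glycogen down, rose by 0.69 ± 0.06 (SE).

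**Figure D3:**
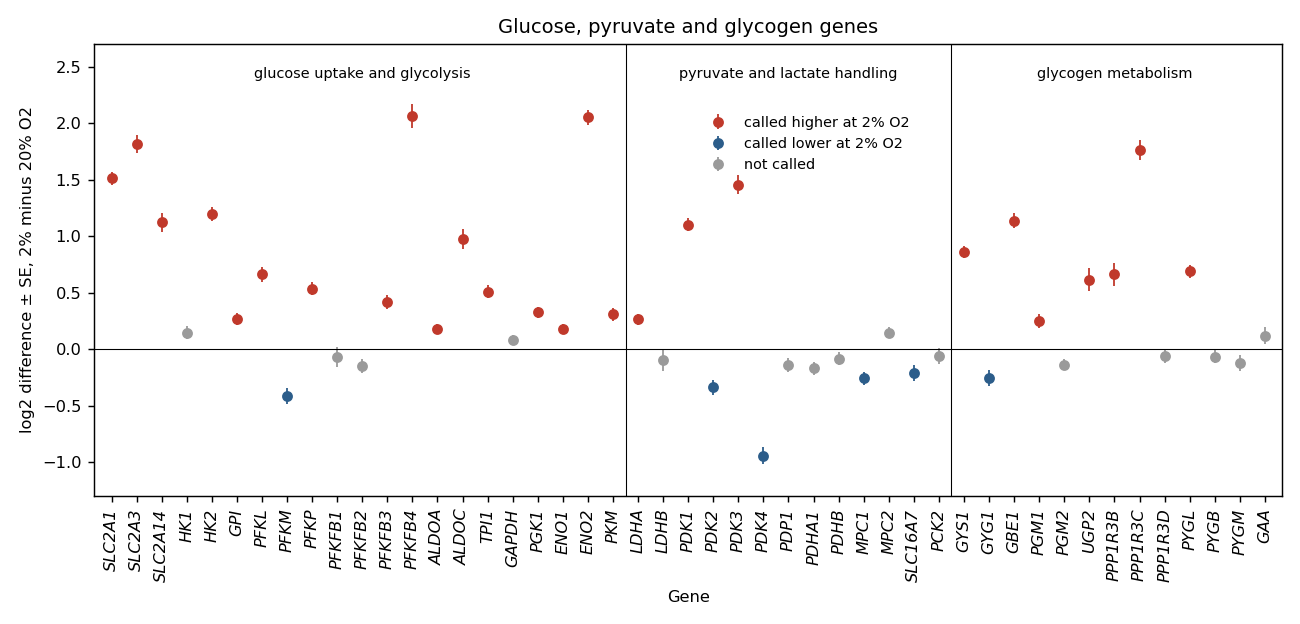
The log2 difference between 2% and 20% O2 with its SE (vertical axis) is plotted for every measured gene of 3 lists, in pathway order: glucose uptake and glycolysis, pyruvate and lactate handling, and glycogen metabolism. Red points are genes called higher at 2% O2, blue points genes called lower and grey points genes not called. Most glycolysis and glycogen genes lie above 0, while PDK3 and PDK1 lie above it and PDK4 and PDK2 below.

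Mitochondrial genes divided by role. Of 12 measured genes of mitophagy and mitochondrial adaptation, 5 rose (41.7%) and 1 fell (8.33%), against 8.99% and 6.17% of all genes. BNIP3, a receptor that marks mitochondria for removal, read 12.94, 12.93 and 12.86 against 11.62, 11.72, 11.62 and 11.66. The groups stood more than 1 log2 unit apart, and BNIP3 rose by 1.25 ± 0.05 (SE) (limma adjusted p = 1.23e-09). Its relative BNIP3L rose by 0.90 ± 0.06 (SE), FAM162A, a HIF-responsive mitochondrial protein, by 1.18 ± 0.09 (SE), and MXI1, a MYC antagonist, by 0.95 ± 0.07 (SE). Of 28 respiratory chain subunits 1 rose (3.57%) and 3 fell (10.7%), with no change over 0.20 among these 4. No fall was left without flask 6, 10, 16 or 18 and 1 without flask 17, while the 75th percentile scaling gave 11. In the tricarboxylic acid cycle, 6 of 15 fell (40.0%) and 1 rose (6.67%). IDH2, the mitochondrial NADP-dependent isocitrate dehydrogenase, rose by 0.57 ± 0.07 (SE), while IDH3A, a subunit of the NAD-dependent enzyme, fell by 0.27 and ME2, a malic enzyme, by 0.28.

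Among secreted and vascular signals, 10 of 24 measured angiogenic and vasoactive factors rose. At an unadjusted p under 0.05, limma had 2 members lower, neither of which passed after adjustment, and 2 fell when flask 6 or 18 was left out. The median of the list was 0.01 and -0.05 with the 75th percentile set equal. ADM, the vasodilator adrenomedullin, read 11.51, 11.66 and 11.48 against 9.48, 9.62, 9.53 and 9.63, and rose 3.96-fold. ANGPTL4, an inhibitor of lipoprotein lipase, read 10.16, 10.43 and 9.95 against 8.24, 8.09, 8.08 and 8.19, and rose 4.09-fold. VEGFA, the main endothelial growth factor, read 12.28, 12.31 and 12.21 against 11.26, 11.26, 11.26 and 11.19, and rose 2.03-fold. In these 3 genes no array at 2% O2 came near an array at 20% O2. STC1, a glycoprotein hormone, rose by 1.59 ± 0.12 (SE) and was lowest of the 3 flasks in flask 18 (7.53 against 7.98 and 8.08). EDN2, an endothelin, rose by 1.50 ± 0.11 (SE). In the insulin-like growth factor list, 4 of 13 rose and 3 fell. IGFBP1, a liver-type binding protein, rose by 0.70 ± 0.08 (SE) and IRS2, the insulin receptor substrate, by 0.77 ± 0.07 (SE). The 3 falls of that list became 1 without flask 7 or 16 and 0 without flask 17.

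A larger share rose among enzymes that hydroxylate and cross-link collagen than in the list of collagens, matrix proteins and proteases. Of 17 measured collagen hydroxylases and lysyl oxidases 7 rose and 1 fell, and of 25 collagens, matrix proteins and proteases 3 rose and 1 fell, the fall being lost without flask 9, 10, 16 or 17. The difference between these shares was not tested. LOX, the cross-linking lysyl oxidase, read 13.19, 13.35 and 13.13 against 11.79, 11.73, 11.79 and 11.76, with no overlap, and rose by 1.46 ± 0.06 (SE). LOXL2, its relative, read 11.75, 11.84 and 11.73 against 10.13, 10.29, 10.13 and 10.11, and rose by 1.61 ± 0.10 (SE). In both genes the arrays at 20% O2 were closely grouped, but for flask 7 in LOXL2. PLOD2, a lysyl hydroxylase, rose by 1.16 ± 0.12 (SE) and P4HA1, a prolyl hydroxylase, by 1.11 ± 0.08 (SE). Of the matrix list, MMP7, the matrix protease matrilysin, rose by 0.80 ± 0.08, PLAUR, the urokinase receptor, by 0.51 ± 0.07 and COL5A1, a fibrillar collagen chain, by 0.46 ± 0.06 (SE). DCN, the stromal proteoglycan decorin, rose by 0.52 ± 0.07 (SE). It was the 1 of 14 fibroblast and stellate markers that rose, while PDGFRA fell, a call lost without flask 7, 9, 10, 16 or 17, and the median of the list was -0.11.

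The oxygen-using demethylases of chromatin and RNA, enzymes of the same 2-oxoglutarate family as the sensors, had 8 of 23 members up and 1 down, with a median of 0.11. The fall was lost without flask 6, 9, 16 or 17. KDM3A, a histone H3 lysine demethylase, read 10.48, 10.54 and 10.40 against 9.80, 9.66, 9.72 and 9.75. The ranges were well apart, and KDM3A rose by 0.74 ± 0.06 (SE) (limma adjusted p = 5.24e-07). KDM4C, another histone demethylase, rose by 0.66 ± 0.09, TET2, which oxidises methylcytosine, by 0.67 ± 0.08 (0.43 in its other row of the table), and ALKBH5, an RNA demethylase, by 0.51 ± 0.05 (SE).

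Transcription regulators known from hypoxia mostly rose. Of 31 measured, 19 rose and 4 fell, with a median of 0.42. Leaving out each array gave 17 or 18 rises, and 2 falls without flask 7, 10 or 18. HEY1, a repressor of the NOTCH pathway, read 10.17, 10.16 and 9.93 against 8.56, 8.38, 8.50 and 8.42, and rose by 1.63 ± 0.08 (SE). JUN, a subunit of AP-1, read 9.99, 9.96 and 9.70 against 8.63, 8.92, 8.69 and 8.86, and rose by 1.11 ± 0.08 (SE). Neither gene overlapped between the groups, and flask 18 was the lowest of the 3 in both. The inhibitors of differentiation split, with ID2 up by 1.02 ± 0.12 (SE) and ID3 down, at 9.55, 9.18 and 9.69 against 10.04, 10.05, 9.90 and 10.11. ID3 fell by 0.56 on the log2 scale (limma adjusted p = 0.00151). ERRFI1, a feedback inhibitor of EGFR, rose by 0.73 ± 0.05, and EGFR itself by 0.72 ± 0.05 (SE). MYC differed by -0.05 and did not pass (adjusted p = 0.527 in limma). Among 18 genes of the NOTCH pathway HEY1 rose and JAG1, a ligand, fell by 0.21, with a median of -0.12. Rises were 2 without flask 16 or 18, and falls were 0 without flask 17 and 2 without flask 18.

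Clock genes moved both ways. Of 21 measured, 4 rose and 5 fell, and 3 fell without flask 17. RORA, an activator of the core clock, read 7.29, 7.74 and 7.45 against 6.24, 6.07, 6.05 and 6.19, and rose by 1.36 ± 0.11 (SE). BHLHE40, a repressor and known HIF target, rose by 0.89 ± 0.05 (SE). NR1D2, the repressor that opposes RORA at the same sites, read 9.05, 8.83 and 8.94 against 9.78, 9.69, 9.83 and 9.79, and fell by 0.84 on the log2 scale. USP2, a deubiquitinase with rhythmic expression, read 8.35, 8.41 and 8.25 against 9.13, 9.12, 8.96 and 9.09, and fell by 0.74. In all 4 genes the arrays of the groups stayed apart. The hour of harvest is not given in the labels.

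Genes of growth control and of the unfolded protein response rose in larger shares than the 8.99% of all genes. Of 19 mTORC1 brakes and growth regulators 7 rose and 2 fell, and 4 rose without flask 9 or 17, while the 2 falls became 0 without flask 7 or 17 and 1 without flask 9, 10, 16 or 18. The median of that list was -0.02. NDRG1, a stress-responsive differentiation gene, read 13.12, 13.21 and 13.05 against 11.61, 11.70, 11.63 and 11.58, and rose by 1.50 ± 0.05 (SE). DDIT4, the mTORC1 inhibitor REDD1, read 12.40, 12.32 and 12.21 against 11.70, 11.71, 11.63 and 11.70, and rose by 0.62 ± 0.06 (SE). Both were higher in every array at 2% O2. ERO1A, the oxidase that forms disulfides in the endoplasmic reticulum, rose by 1.23 ± 0.07 (SE). Of 34 genes of the unfolded protein response and ATF4, 15 rose and 2 fell, with a median of 0.14. Leaving out single arrays gave 10 to 14 rises, and no fall without flask 17. The largest of them were VEGFA, VLDLR and STC2 (0.81), followed by EDEM1, a factor of protein degradation in the endoplasmic reticulum, at 0.39 ± 0.06 (SE).

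Lipid and sterol genes moved both ways. HILPDA, a lipid droplet protein induced by hypoxia, read 10.59, 10.77 and 10.42 against 9.14, 9.01, 9.11 and 9.11, and rose by 1.50 ± 0.08 (SE). VLDLR, a lipoprotein receptor, rose by 0.82 ± 0.09 (SE). These were the 2 rises among 24 genes of lipid droplets and fatty acid use, where 5 fell. LPIN1, a phosphatidate phosphatase, read 9.84, 9.72 and 9.82 against 10.45, 10.51, 10.44 and 10.45, and fell by 0.67 on the log2 scale. PPARGC1A, a coactivator of mitochondrial biogenesis, read 9.50, 9.38 and 9.72 against 10.10, 10.03, 10.17 and 9.92, and fell by 0.52. Both were lower in every array at 2% O2. Of 26 sterol and fatty acid synthesis genes, 3 rose and 6 fell. INSIG2 and INSIG1, which hold the sterol sensor back in the endoplasmic reticulum, rose by 1.27 ± 0.13 and 0.68 ± 0.10 (SE). MSMO1, an oxygen-using sterol oxidase, fell by 0.44 and ACACA, acetyl-CoA carboxylase, by 0.36.

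Iron genes also split. CP, the ferroxidase ceruloplasmin, read 6.74, 6.62 and 6.47 at 2% O2 and 4.98, 4.86, 5.25 and 4.63 at 20% O2. The latter values lie below the floor, so that the rise of 1.68 ± 0.13 (SE) may understate the change. STEAP3, a metalloreductase that releases iron from endosomes, rose by 0.75 ± 0.06, and STEAP4, a related reductase, read 11.08, 11.06 and 11.00 against 11.68, 11.59, 11.76 and 11.64, and fell by 0.62. In the list, 5 of 18 rose and 4 fell, and 1 or 2 fell when flask 6, 10, 16, 17 or 18 was left out.

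Besides PDK4, the largest falls were of genes with varied roles. CD22, a sialic acid binding receptor of B lymphocytes, read 7.90, 7.51 and 8.01 against 8.99, 9.08, 8.98 and 8.86. It was lowest in flask 17, its groups did not overlap, and it fell by 1.17 on the log2 scale (limma adjusted p = 1.15e-06). ADGRG1, an adhesion receptor, read 10.06, 9.63 and 10.18 against 10.78, 10.92, 10.81 and 10.75, and fell by 0.86. Arginine handling lost members at uptake and breakdown. SLC7A2, a cationic amino acid transporter, read 10.33, 10.27 and 10.20 against 11.10, 11.13, 11.06 and 11.07, and fell by 0.82, and ARG2, the mitochondrial arginase, read 7.03, 7.03 and 7.13 against 7.84, 7.90, 7.88 and 7.99, and fell by 0.84. Lack of overlap was a condition for entry among the 15 largest falls, CD22, SLC7A2 and ARG2 included. In the arginine and amino acid list, 5 of 21 fell and 1 rose, with 3 falls without flask 17. PLA2G4A, the phospholipase that frees arachidonate, fell by 0.77, HECW1, a ubiquitin ligase, by 0.71, CREB5, a transcription factor, by 0.70, SCIN, an actin-severing protein, by 0.69, MAP2, a microtubule protein, by 0.67 and TNFRSF21, a death receptor, by 0.66.

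**Figure D4:**
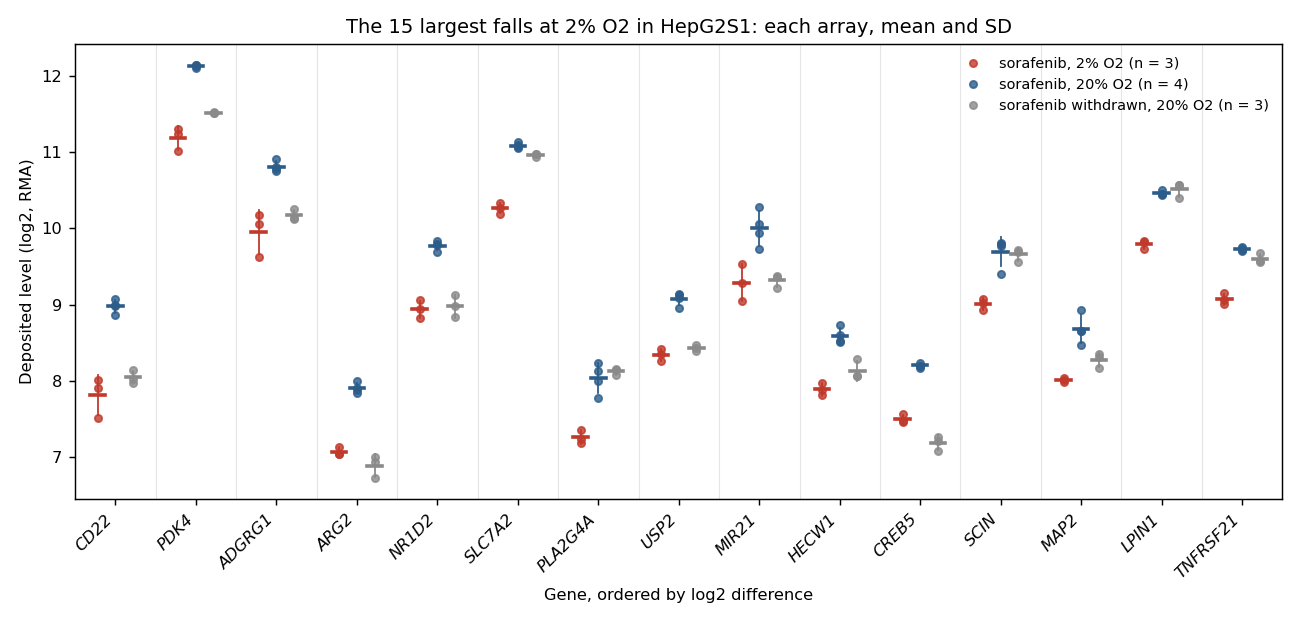
Deposited log2 levels of the 15 genes with the largest falls are plotted for every array of HepG2S1 with sorafenib at 2% O2 (red), with sorafenib at 20% O2 (blue) and withdrawn at 20% O2 (grey). Horizontal marks are group means and vertical bars 1 SD. Red points lie below all blue points in each gene, as the choice of genes required. The grey points lie beside the red ones in CD22, NR1D2, USP2 and MIR21 and beside the blue ones in SLC7A2, PLA2G4A, SCIN and LPIN1.

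The locus of a microRNA was among the largest falls. Rows of 173 microRNA loci were measured, of which 8 rose, 4 fell and 88 lay below the floor in both groups. Both shares are smaller than the 8.99% and 6.17% of all genes. Such a row reads RNA from the locus, and not the mature microRNA. MIR21, a locus often raised in liver cancer, read 9.28, 9.53 and 9.04 against 9.94, 10.06, 9.73 and 10.28, and fell by 0.72 ± 0.12 (SE) on the log2 scale (limma adjusted p = 0.00102). The arrays varied within each group but did not overlap between them. MIR210, whose mature form is a known marker of hypoxia, and MIRLET7F1 were looked at after their values were seen. MIR210 read 9.17, 9.10 and 9.25 against 9.22, 9.37, 9.29 and 9.44, and its difference of -0.15 did not pass (adjusted p = 0.165 in limma). MIRLET7F1 read 7.04, 6.66 and 6.35 against 6.23, 5.65, 5.62 and 5.87, and rose by 0.84 ± 0.15 (SE). The mature sequences of these loci, from RefSeq, are shown with the seed (bases 2 to 8) in capitals, since the seed sets the targets and the 3 seeds differ. The let-7f sequence is also made from the locus MIRLET7F2.
hsa-miR-21-5p (chr17:59841273-59841294, plus strand): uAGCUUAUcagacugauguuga
hsa-miR-210-3p (chr11:568112-568133, minus strand): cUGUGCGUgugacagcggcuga
hsa-let-7f-5p (chr9:94176353-94176374, plus strand): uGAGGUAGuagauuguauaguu

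RNA of genes tied to ERK output moved both ways, and kinase activity itself was not measured. Of 24 genes of ERK output and immediate early response, 5 rose (20.8%) and 9 fell (37.5%), against 8.99% and 6.17% of all genes. ETV4, an ETS factor that follows ERK activity, read 8.85, 8.70 and 8.85 against 9.40, 9.47, 9.38 and 9.43, and fell by 0.62 on the log2 scale (limma adjusted p = 1.49e-05). SPRY1, a feedback inhibitor of the same pathway, read 9.04, 9.22 and 8.87 against 8.14, 8.04, 8.08 and 7.94, and rose by 0.99 ± 0.08 (SE). IER3, an immediate early gene, rose by 0.87 ± 0.08 (SE). These 3 genes did not overlap between the groups. Of 13 kinase targets of sorafenib the 1 that fell, PDGFRA, lay below the floor in both groups, and it lost the call without flask 7, 9, 10, 16 or 17. DDR2, a collagen receptor kinase, read 9.14, 8.94 and 9.34 against 9.33, 9.21, 9.39 and 9.11, overlapped and did not pass (adjusted p = 0.383 in limma). Of 20 genes of drug transport and metabolism 3 rose (15.0%) and 2 fell (10.0%), against 8.99% and 6.17% of all genes. There was 1 fall without flask 6, 7 or 16 and 0 without flask 17. SLCO1B3, a liver uptake transporter, rose by 0.69 ± 0.12 and ABCC4, an efflux pump, by 0.28 ± 0.06 (SE). ABCB1, the efflux pump P-glycoprotein, and CYP3A4, which metabolises sorafenib, lay below the floor in both groups.

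Replication, mitosis and repair genes had few calls, while ribosome biogenesis genes fell in the largest share of the 47 lists. Of 31 genes of DNA replication and the G1/S step 2 rose and 2 fell, counts that dropped to 1 rise without flask 7, 10, 16 or 17 and to 0 or 1 fall without any 1 array, and TK1, thymidine kinase, rose by 0.46 ± 0.06 (SE). CCND1, cyclin D1, fell by 0.27 and did not pass without flask 17 (adjusted p = 0.0579 in limma). Of 27 genes of G2/M and mitosis 3 rose, with none without flask 10, 16 or 17, 1 without flask 7 or 9 and 6 without flask 18. MKI67, a proliferation marker, read 11.49, 11.48 and 11.31 against 11.29, 11.23, 11.27 and 11.29, and did not pass (adjusted p = 0.0675 in limma). In DNA repair 0 of 21 genes passed in limma, 2 being higher and 4 lower at an unadjusted p under 0.05, and the repeated quantile normalization gave 3 falls and the 75th percentile scaling 4. CDKN1A, the cell cycle inhibitor p21, differed by 0.02 and did not pass. Of 20 apoptosis regulators 5 fell and 2 rose, and BCL2 and CASP9, a survival factor and an initiator caspase, fell by 0.47 and 0.45. Leaving out flask 6, 7, 9, 10 or 17 gave 3 falls, and leaving out flask 7, 10, 16 or 17 gave no rise. Of 20 genes of ribosome biogenesis and MYC targets 9 fell and 1 rose, against 6.17% and 8.99% of all genes. RRP12, a factor of ribosomal RNA processing, fell by 0.45, RRP9 by 0.38 and CAD, which starts pyrimidine synthesis, by 0.31. Without flask 17, 5 of these 20 fell.

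The best known mesenchymal markers did not pass. VIM, CDH2, SNAI1 and ZEB1 differed by 0.05, -0.07, -0.10 and -0.02 and none passed (adjusted p of 0.371 or more in limma), and neither did CDH1 (-0.10). The 95% confidence interval for VIM ran from -0.06 to 0.17. Among all genes 8.99% rose and 6.17% fell. Of 24 mesenchymal genes and regulators 5 rose (20.8%) and 3 fell (12.5%), with a median of 0.04. Of 22 outputs of TGF-beta, BMP and YAP signalling 7 rose (31.8%) and 4 fell (18.2%), with a median of 0.02. With the 75th percentile set equal these medians were -0.02 and -0.04. Without flask 6, 7, 10, 16 or 17 the falls were 0 or 1 in the first list and 1 or 2 in the second. The ligand TGFB2 read 9.38, 9.76 and 9.13 against 8.73, 8.55, 8.65 and 8.60, and rose by 0.79 ± 0.12 (SE), TGFB1 rose by 0.45 ± 0.08 and the receptor TGFBR1 by 0.38 ± 0.06 (SE). TGFB2 was higher in every array at 2% O2. F3, the coagulation starter tissue factor, rose by 0.85 ± 0.08 (SE). Of 27 epithelial genes 5 rose (18.5%) and 2 fell (7.41%). CLDN7, a claudin, was up by 0.52 ± 0.08, PKP2, a plakophilin, up by 0.48 ± 0.05 and CLDN1 down by 0.36.

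Inflammatory and redox lists held more falls than rises. Of 27 genes of inflammation 3 rose (11.1%) and 6 fell (22.2%), against 8.99% and 6.17% of all genes. PTGS2, the inducible cyclooxygenase, read 8.93, 8.80 and 8.54 against 7.64, 7.46, 7.44 and 7.32, and rose by 1.29 ± 0.12 (SE), and IL1A, an interleukin, rose by 0.95 ± 0.09 (SE). CFB, complement factor B, read 10.12, 10.11 and 10.00 against 10.66, 10.63, 10.61 and 10.59, and fell by 0.54. None of these 3 overlapped between groups. Of 22 NRF2 target redox enzymes 2 rose (9.09%, near the share of all genes) and 5 fell (22.7%). GSR, glutathione reductase, fell by 0.42 and TXNRD1, thioredoxin reductase, by 0.33. Of 12 purinergic genes 3 rose, or 1 without flask 17, and P2RY2, a nucleotide receptor, rose by 0.72 ± 0.06 (SE). Among 11 metallothioneins and related genes 3 rose, with MT1X at 0.48 and MT1F at 0.27, whose near-identical sequences make the separate values uncertain.

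**Figure D5:**
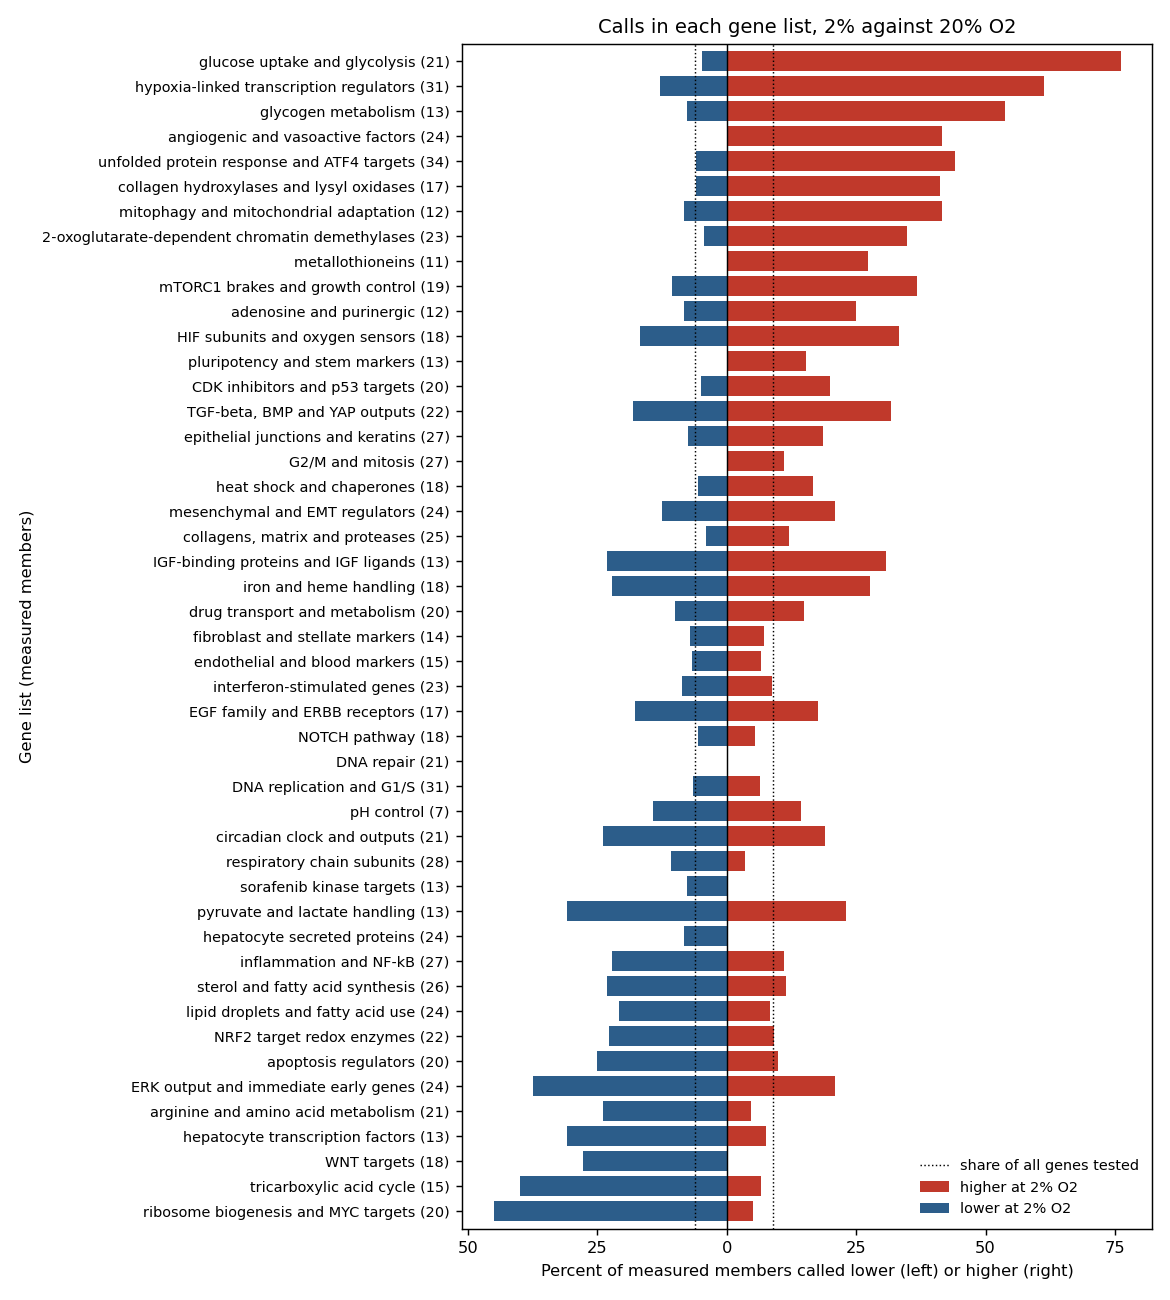
Bars give the percent of measured members of each of 47 gene lists that were called higher (red, right) or lower (blue, left) at 2% O2, with the number measured in brackets. Dotted lines mark the shares of all genes tested, 8.99% higher and 6.17% lower. Glycolysis stands at the top with 16 of 21 higher, and the tricarboxylic acid cycle and ribosome biogenesis lists lie at the bottom with 6 of 15 and 9 of 20 lower.

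Withdrawal of the drug at 20% O2 gave a second point of reference. The comparison with 20% O2 and that of withdrawn cells with 20% O2 share the 4 arrays at 20% O2, so their differences are not independent and are only set side by side here. In the direct contrast of 2% O2 with drug against withdrawn cells, oxygen and drug both differ. It called 3412 genes in limma (18.6% of the genes tested). The genes below were chosen for their values in the 3 arrays at 2% O2, which this contrast uses again, so their counts are a description. Of the 79 genes with a 2-fold rise, 73 were also higher at 2% O2 than in withdrawn cells, and 6 did not differ there beyond the threshold. IGFBP3 was 10.27, 10.11 and 10.19 in withdrawn cells, 1.33 above its mean at 20% O2 and 1.52 below that at 2% O2. ENO2 was 0.54 above its mean at 20% O2 and ADM 0.68, and both were higher again at 2% O2, by 1.51 and 1.30. VEGFA was 0.05 above its mean at 20% O2 in withdrawn cells, and higher at 2% O2 than in withdrawn cells by 0.97 (limma adjusted p = 4.38e-08). PTGS2 read 8.89, 8.66 and 8.56 in withdrawn cells, 1.24 above its mean at 20% O2, and did not differ between withdrawn cells and 2% O2 (0.05, adjusted p = 0.826 in limma). ID2 did not pass there either (0.23, adjusted p = 0.248 in limma).

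Of the 15 largest falls, chosen on the same arrays at 2% O2, 7 were lower at 2% O2 than in withdrawn cells, 1 was higher and 7 did not pass. SLC7A2 and LPIN1 were lower at 2% O2 than in withdrawn cells by 0.70 and 0.72, and differed by -0.13 and 0.05 between withdrawn cells and 20% O2. NR1D2 and USP2 read 9.12, 8.97 and 8.83, and 8.47, 8.39 and 8.43, in withdrawn cells, close to their values at 2% O2. Their differences from withdrawn cells were -0.04 and -0.09 and did not pass (adjusted p = 0.821 and 0.399 in limma). CD22 stood at 8.13, 8.03 and 7.97 in withdrawn cells, 0.93 below its mean at 20% O2. CREB5 was the 1 that was higher, with 2% O2 above withdrawn cells by 0.31 (limma adjusted p = 0.00183). DDR2 went the other way. It stood at 8.18, 8.02 and 7.91 in withdrawn cells, and was higher at 2% O2 by 1.10 (limma adjusted p = 3.33e-06) while both groups under the drug overlapped.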

How the data were processed

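RNA of 13 flasks was hybridised to 13 Affymetrix whole-transcript arrays. The deposited values are on a log2 scale, and the submitters' processing notes name RMA, a method that subtracts background, equalises the arrays' distributions and combines probes. The version of RMA is not given in the sources used here. No pair of the 7 arrays compared held identical values, and no batch or scan date was given.

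Rows with 1 gene symbol were used (19310, against 1752 with several and 7864 with none), with symbols updated through RefSeq GRCh38.p14 for 19279 of them. Where a gene had several rows (685 genes), its brightest row on average was used. A single limma 3.58.1 model (R 4.3.3) took in all 4 groups, with 9 residual degrees of freedom, moderated variances and Benjamini-Hochberg adjustment over 18377 genes. A gene was called at an adjusted p under 0.05.

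Genes were named by rule: the 15 largest rises and falls whose arrays did not overlap, the most changed called genes, at most 4, of each of 47 gene lists (878 of 974 genes measured), and a fixed set of HIF, drug and marker genes. The rest of the glycolysis list is given in full besides, and MIR210 and MIRLET7F1 were added after their values were seen. The members and lists were chosen with earlier results of these data known. CA9 and EGLN2 are not analysed here.

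Alternatives were other samples in the fit, moderation, weights, filters, scaling, row rules, thresholds and leaving out each array. Simulated data with 18377 genes were used to test the procedure for this comparison. It recovered 52% of genes changed by 0.3 on the log2 scale, 94% at 0.5, 96% at 1 and 100% at 2, and 6 of 177 calls were false. The simulation changed 50 genes at each size, with noise drawn independently for each gene and no shift shared by the genes of an array. Its share of false calls therefore does not carry over to the many small changes called here. Figures were drawn with matplotlib 3.10.9.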

Additional observations from a re-analysis of the deposited data

Results flagged for a closer look

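Among 191 named genes, the 4 arrays of HepG2S1 with sorafenib at 20% O2 held 1 array far from the other 3 in 11 genes. Chance flags about 1 in 20 groups, which gives a count close to this one. Flask 7 stood apart in 5 of the 11 genes. It was lowest for HIF1A (12.53), PLOD2 (10.86) and SCIN (9.41) and highest for LOXL2 (10.29) and LPIN1 (10.51). Flask 10 was lowest for VEGFA (11.19) and CCN2 (8.23) and highest for PDK3 (6.70). Flask 9 was lowest for TGFB1 (9.80) and SAA2 (7.16), and flask 6 for P2RY2 (7.74). In VEGFA, PDK3 and P2RY2 the whole range of the 4 arrays was 0.07, 0.07 and 0.06, small beside their differences between the oxygen levels. The groups with 3 arrays were not examined in this way.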

How the results depend on the processing

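No named gene that was called changed direction in the 18 settings tried. The 75th percentile scaling moves each difference by -0.06, so named genes not called and close to 0 can change sign there. The number of genes called moved with array weights to 4568 (2227 lower, and 5178 for 2% O2 against withdrawn cells) and with an adjusted p under 0.01 to 1298 (926 higher, 372 lower, and 2049 against withdrawn cells). The 75th percentile scaling gave 2529 lower and 2 lower by 2-fold. Leaving out each array gave 1598 to 2963 genes called, 1077 to 1763 higher, 521 to 1378 lower, 70 to 93 past 2-fold (69 to 91 higher, 1 or 2 lower) and 2475 to 3567 against withdrawn cells. Fits without the withdrawn arrays, chosen after seeing the data, gave 2166. Of 191 named genes 174 were called, of which 134 kept the call in every setting and 40 lost it in 1 or more, and 3 others (ABCB1, ALB and MKI67) gained one. Of 94 list counts, 31 moved by no more than 1.5 times in any setting. No paired analysis was possible because the flask numbers of the groups do not overlap and the labels give no pairing. Only 3 arrays stood at 2% O2, and 2711 genes lay below the floor in both groups, 81 of which were called, so that their differences may be understated.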
